A study of Mus musculus with 24 samples.

Results

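A set of 10 genes of calcium handling and potassium conductance was followed through B cell receptor stimulation, with and without the transcription factor NFATc1: the store sensors Stim1 and Stim2, the entry channel Orai1, the inositol trisphosphate (IP3) receptors Itpr1, Itpr2 and Itpr3, the calcium pumps Atp2b1 and Atp2a3, and the potassium channels Kcnn4 and Kcnq5. Each gene is given by its brightest probe set, the one with the highest mean over the 24 arrays among probe sets annotated to that gene alone. Of the 10 genes, 9 were measured, all 9 passed the filter on dim signals, and they stand among 14318 genes tested. Itpr1 was not analysed here. The list was chosen by role with measured values of these arrays in view, and Kcnq5 was selected on its KO minus WT difference, so that difference is described without a test. Where a count of genotype calls includes Kcnq5, this is stated.

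The arrays hold RNA from bead-enriched splenic B cells of C57BL/6 mice aged 6 to 8 weeks, 3 biological replicates in each of 8 groups. NFATc1-deficient cells (KO) come from mice with loxP sites around exon 3 of Nfatc1, crossed with mice that carry a Cre recombinase driven by the Cd79a (mb-1) gene, which is active from early B cell development on. Control cells (WT) are labelled WT, and the labels do not say whether they had the floxed allele or the Cre. Both genotypes were sampled after 0, 3, 8 and 16 h with anti-IgM, which engages the B cell receptor. The labels do not tie equal replicate numbers of different times to the same animals. The main fit treats the 24 arrays as independent, and its p-values measure the spread between these samples. If arrays of a genotype and number came from the same animals, the p-values of averaged genotype comparisons would be too small. In whole populations, fewer cells of a type and less RNA per cell cannot be told apart.

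In lymphocytes, receptor engagement makes phospholipase C produce IP3, which opens IP3 receptors on the endoplasmic reticulum and releases stored calcium. STIM proteins sense the emptied store and open Orai channels in the plasma membrane, and the calcium that enters activates calcineurin, the phosphatase that sends NFAT proteins to the nucleus. SERCA pumps such as the product of Atp2a3 refill the store, PMCA pumps such as that of Atp2b1 expel calcium, and potassium channels such as KCNN4 keep the membrane potential negative, which favours calcium entry.

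All levels are log2 of the array signal. The filter level of an array, below which a signal counts as dim, was its 40th percentile, between 5.38 and 6.42. The 6 measured B cell markers exceeded that level in every group. Their summed signal lay between 83531 and 106669 on the KO arrays and 91710 and 104693 on the WT arrays at 0 h, and between 36242 and 44148 (KO) and 30374 and 36489 (WT) at 16 h. The summed signal of 8 T cell markers moved with stimulation, between 6512 and 6907 (KO) and 6267 and 6773 (WT) at 0 h and between 719 and 997 (KO) and 606 and 772 (WT) at 16 h, although the defining genes Cd3d and Cd4 were under the filter level in all 8 groups. That of 9 macrophage and monocyte markers lay between 5679 and 10594 (KO) and 5951 and 13257 (WT) at 0 h and between 4448 and 10921 (KO) and 2898 and 5321 (WT) at 16 h, with C1qa under the level in all groups. Sums of other lists also moved with stimulation. Those of 5 NK cell markers lay between 465 and 2114 (KO) and 476 and 1032 (WT) at 0 h and between 160 and 312 (KO) and 239 and 313 (WT) at 16 h. Those of 6 stromal and endothelial markers, with Col1a1, Col3a1 and Cdh5 under the level in all groups, lay between 1651 and 3092 (KO) and 1853 and 2820 (WT) at 0 h and between 367 and 584 (KO) and 328 and 502 (WT) at 16 h. Those of 8 neutrophil markers lay between 794 and 5212 (KO) and 2921 and 4277 (WT) at 0 h and between 703 and 4493 (KO) and 1041 and 1274 (WT) at 16 h. The part of these cells in the changes with stimulation or between the genotypes was not tested. At a limma adjusted p under 0.05, 1 of 6 tested B cell markers was higher in KO cells in each of the averaged, 8 h and 16 h comparisons. So was 1 of 7 T cell markers averaged and at 16 h. At 16 h 1 of 8 macrophage and monocyte markers was higher and 1 of 5 NK cell markers lower. Of all genes 1.21% passed averaged, 0.0978% at 8 h and 0.615% at 16 h. All 4 WT replicate 2 arrays, and no other arrays, showed male-type expression (mean of Y-linked genes 8.75 to 9.26, against 2.59 to 4.93 elsewhere), and KO replicate 2 at 8 and 16 h had the 2 highest filter levels. The signal of Nfatc1 itself was higher on the arrays labelled KO in all 5 of its probe sets (averaged differences 0.11 to 0.56), without overlap at any time in the brightest (0.56, limma adjusted p = 1.12e-05). No source used here places them against the deleted exon, so they do not check the genotype labels.

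The promoters of the 3 genes on which the genotype comparison turns are printed here, because NFAT proteins bind the core GGAAA. Each is the 250 bases before an annotated start in RefSeq on GRCm38.p6, with GGAAA or its reverse complement TTTCC in capitals. The core shares its letters GGAA with sites of ETS factors. The windows are Kcnq5 at chr1:21961943-21962192 and chr1:21962651-21962900 (both minus strand), Orai1 at chr5:123014824-123015073 (plus strand) and Itpr3 at chr17:27057054-27057303 (plus strand).
Kcnq5 window 1: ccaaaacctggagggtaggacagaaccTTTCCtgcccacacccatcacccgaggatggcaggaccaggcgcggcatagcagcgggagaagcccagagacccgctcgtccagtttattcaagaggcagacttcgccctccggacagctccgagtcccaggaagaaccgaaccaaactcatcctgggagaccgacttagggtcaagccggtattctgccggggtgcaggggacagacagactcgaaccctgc
Kcnq5 window 2: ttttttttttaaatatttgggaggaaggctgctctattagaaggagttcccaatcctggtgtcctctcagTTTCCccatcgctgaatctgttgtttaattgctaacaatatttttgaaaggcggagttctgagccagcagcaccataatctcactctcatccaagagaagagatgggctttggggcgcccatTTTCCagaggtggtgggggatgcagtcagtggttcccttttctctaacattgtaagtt
Orai1: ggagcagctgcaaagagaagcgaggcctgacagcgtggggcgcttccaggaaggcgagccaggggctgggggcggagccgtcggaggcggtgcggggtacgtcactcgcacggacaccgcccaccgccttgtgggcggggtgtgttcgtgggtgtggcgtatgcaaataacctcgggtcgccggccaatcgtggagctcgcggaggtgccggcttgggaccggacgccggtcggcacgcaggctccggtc
Itpr3: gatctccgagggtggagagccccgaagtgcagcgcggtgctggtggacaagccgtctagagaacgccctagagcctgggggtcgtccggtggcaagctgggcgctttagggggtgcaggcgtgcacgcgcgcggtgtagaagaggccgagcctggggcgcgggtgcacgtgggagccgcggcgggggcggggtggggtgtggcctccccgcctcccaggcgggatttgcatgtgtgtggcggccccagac

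The 9 measured genes have 11 such windows, and all 9 matched. The core, on either strand, occurred in 3 of the 11: once in the first Kcnq5 window (first base 223 bases before the start), at 2 places in the second (180 and 58 bases before it) and once in a window of Atp2b1 (196 bases before it). Of all 32851 windows of the same length, 55.6% held it. The AP-1 motif TGANTCA, which reads the same on both strands, was in 0 of the 11 windows and in 6.75% of all. The windows of the 9 genes contained between 44.4% and 80.8% G and C, against a median of 52.4% over all windows. These are letters in a window and say nothing about binding.

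Within the store-operated pathway stimulation moved genes in opposite directions: the entry channel Orai1 rose while the sensor Stim1 and the receptors Itpr2 and Itpr3 fell at 3, 8 and 16 h in both genotypes. The sensor Stim2 was lower at 3 and 8 h, calls that ended with median scaling, and not at 16 h. In KO cells 6, 7 and 5 of 9 genes passed the test at 3, 8 and 16 h against 0 h, where 38.3%, 31.7% and 35.9% of all genes passed. Of these KO calls 2, 1 and 1 were higher (16.6%, 17.3% and 19.4% of all genes) and 4, 6 and 4 lower (21.7%, 14.4% and 16.4%). In WT cells 6 of 9 passed at each time, where 38.3%, 33.4% and 39.4% of all genes passed. Of the WT calls 2, 1 and 2 were higher (17%, 17.7% and 20.9% of all genes) and 4, 5 and 4 lower (21.3%, 15.7% and 18.5%). Calls are at a Benjamini-Hochberg adjusted p under 0.05 in limma over all 14318 genes. The median change of the 9 genes was -0.51, -0.99 and -0.74 in KO cells, against -0.11, 0.02 and 0.08 over all genes. In WT cells it was -0.49, -0.58 and -0.57, against -0.14, -0.04 and 0.05. The 3 comparisons of a genotype share its 0 h arrays. Scaling each array to the same median added 0.15 (KO) and 0.24 (WT) to the 3 h changes of all genes and 0.16 to the WT 8 h changes, and at most 0.09 to the others. Quantile normalization added 0.11 (KO) and 0.17 (WT) at 3 h, 0.11 to the WT 8 h changes and at most 0.05 to the others.

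**Figure D1:**
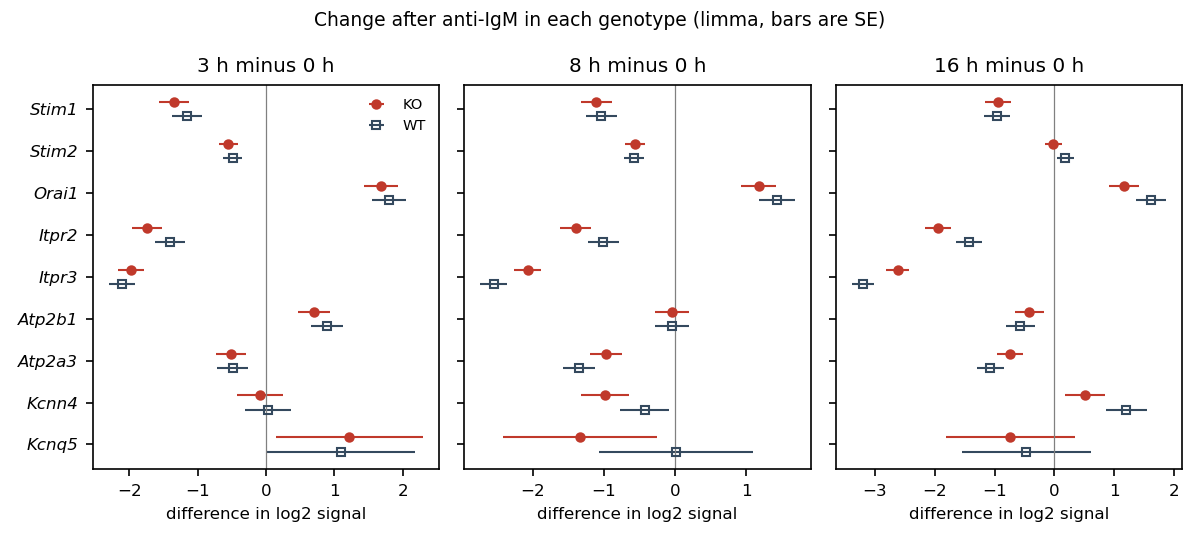
Change in log2 signal (horizontal axis) at 3, 8 and 16 h of anti-IgM against 0 h for each gene, with KO in filled circles above WT in open squares and bars for limma's SE. Orai1 lies right of 0 and Stim1, Itpr2 and Itpr3 left of 0 at all 3 times in both genotypes, with Itpr3 reaching -2.62 in KO and -3.20 in WT at 16 h.

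Stim1, the main sensor of store depletion, was bright at 0 h and lower at every later time. Its levels in KO replicates 1 to 3 were 9.18, 9.41 and 9.51 at 0 h, 7.71, 8.33 and 8.04 at 3 h, 8.26, 8.11 and 8.41 at 8 h, and 8.14, 8.79 and 8.34 at 16 h. In WT cells they were 9.36, 9.08 and 8.99 at 0 h, 7.74, 8.25 and 8.00 at 3 h, 8.09, 8.12 and 8.09 at 8 h, and 7.70, 8.26 and 8.59 at 16 h. No stimulated array of either genotype reached its own 0 h range. The change at 3 h was -1.34 in KO (SE 0.22, limma adjusted p = 2.57e-05) and -1.15 in WT (SE 0.22, limma adjusted p = 0.000172), and it passed at 8 h (-1.11 and -1.04) and 16 h (-0.94 and -0.96) too. The levels at 3, 8 and 16 h overlapped one another. A second Stim1 probe set fell by 0.97 in KO and 1.24 in WT at 3 h and correlated at 0.90 with the first over the 24 arrays.

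Stim2, the sensor that responds to small losses of stored calcium, fell and then returned. KO levels were 10.27, 10.12 and 10.01 at 0 h, 9.52, 9.55 and 9.69 at 3 h, 9.51, 9.48 and 9.69 at 8 h, and 10.07, 10.05 and 10.23 at 16 h. WT levels were 10.02, 10.16 and 10.22 at 0 h, 9.42, 9.65 and 9.86 at 3 h, 9.54, 9.37 and 9.75 at 8 h, and 10.23, 10.14 and 10.56 at 16 h. The 3 h and 8 h levels lay below the 0 h levels without overlap, while those at 16 h overlapped them. The changes were -0.55 in KO (limma adjusted p = 0.00246) and -0.49 in WT (limma adjusted p = 0.00616) at 3 h and -0.57 and -0.58 at 8 h. At 16 h they were -0.02 in KO and 0.18 in WT, neither past the threshold. The 3 h and 8 h calls ended with arrays scaled to their medians (-0.40 and -0.53 in KO, -0.25 and -0.42 in WT, limma adjusted p between 0.0907 and 0.453), the 3 h call in WT also without WT replicate 1 at 3 h (-0.38, limma adjusted p = 0.053), and the 8 h call in WT without the male-type arrays (-0.47, limma adjusted p = 0.0513). A second Stim2 probe set was dim, above the filter level on 15 of 24 arrays, and correlated at 0.06 with the first.

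Orai1 encodes the pore of the store-operated channel. KO levels were 9.55, 8.98 and 8.73 at 0 h, 10.99, 10.92 and 10.40 at 3 h, 10.50, 10.35 and 9.92 at 8 h, and 10.41, 10.32 and 10.04 at 16 h. WT levels were 9.37, 9.51 and 9.14 at 0 h, 11.17, 11.55 and 10.70 at 3 h, 10.84, 11.25 and 10.23 at 8 h, and 10.98, 11.20 and 10.71 at 16 h. Every stimulated array exceeded every 0 h array of its genotype, with the highest mean at 3 h. At 3 h the rise was 1.68 in KO (3.22-fold, SE 0.25, limma adjusted p = 6.7e-06) and 1.80 in WT (3.47-fold, SE 0.25, limma adjusted p = 2.72e-06). At 16 h it was 1.17 in KO and 1.62 in WT, both past the threshold. The difference between these changes, -0.45 at 16 h, did not pass (SE 0.35, limma adjusted p = 1).

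Both Orai1 probe sets had lower means in KO cells at all 4 times, and 1 of them passed the test. The brightest probe set had means of 9.09 in KO and 9.34 in WT at 0 h, 10.77 and 11.14 at 3 h, 10.26 and 10.77 at 8 h, and 10.25 and 10.96 at 16 h. Only at 16 h did all 3 KO arrays lie below all 3 WT arrays. Averaged over the 4 times the difference was -0.46 (1.38-fold, 95% interval -0.72 to -0.20), which did not pass (limma adjusted p = 0.0748), and without the male-type arrays it was -0.30 (limma adjusted p = 0.487). It passed without KO replicate 1 at 0 h (-0.52), WT replicate 3 at 3 h (-0.52) or WT replicate 3 at 8 h (-0.53). Without replicate number 3 of both genotypes it passed too (-0.48, limma adjusted p = 0.0224). The second Orai1 probe set had 8.54, 8.26 and 8.12 in KO against 9.15, 9.27 and 8.88 in WT cells at 8 h, and 8.76, 8.60 and 8.46 against 9.42, 9.47 and 9.43 at 16 h. The genotypes did not overlap at either time and overlapped at 0 and 3 h. Its averaged difference was -0.58 (SE 0.10), past the threshold over all 33486 probe sets (limma adjusted p = 0.00306). It was -0.57 without the male-type arrays (limma adjusted p = 0.0455) and lost the call with each genotype and replicate number as a random block (limma adjusted p = 0.0729). The correlation of the 2 probe sets over the 24 arrays was 0.92.

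**Figure D2:**
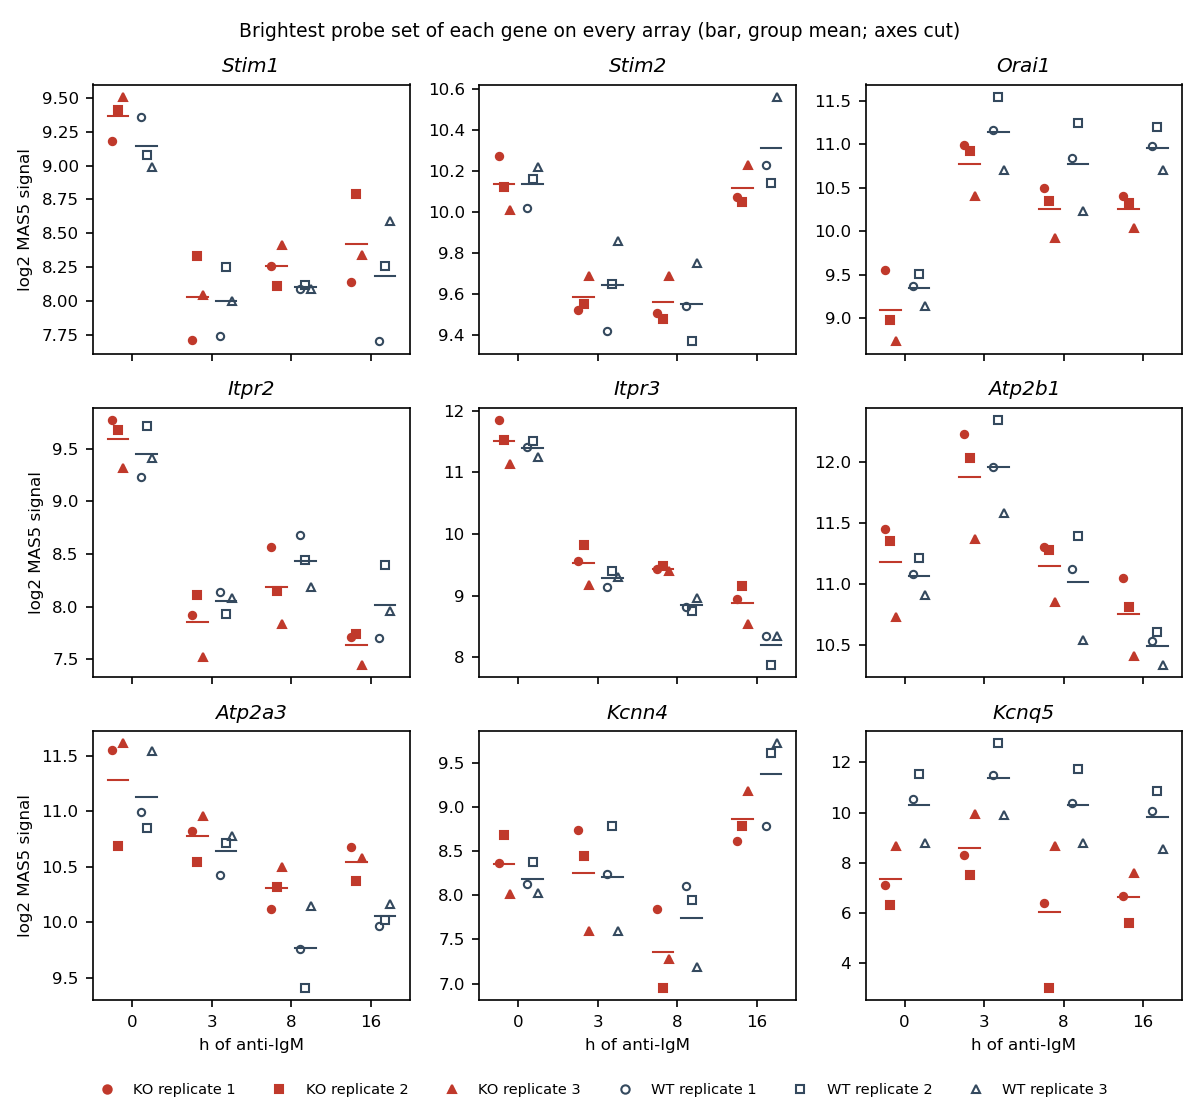
Log2 signal (vertical axes, which do not start at 0) of the brightest probe set of each gene on every array by hours of anti-IgM, KO filled and WT open, with the replicate number as the symbol and bars at group means. Orai1 rises and Itpr3 falls after 0 h in both genotypes, and in Kcnq5 the KO replicate 3 triangles stand at 8.66, 9.93, 8.68 and 7.60, beside the WT replicate 3 triangles at 8.80, 9.92, 8.78 and 8.56.

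Itpr3, 1 of the 3 genes for the IP3-gated release channel, had the largest stimulation change of the 9 genes. KO levels were 11.85, 11.53 and 11.13 at 0 h, 9.57, 9.83 and 9.17 at 3 h, 9.43, 9.48 and 9.40 at 8 h, and 8.95, 9.16 and 8.54 at 16 h. WT levels were 11.42, 11.51 and 11.25 at 0 h, 9.14, 9.40 and 9.31 at 3 h, 8.81, 8.75 and 8.97 at 8 h, and 8.35, 7.88 and 8.35 at 16 h. In WT cells the levels of the 4 times did not overlap, and in KO cells 3 h overlapped 8 h. At 16 h the change was -2.62 in KO (6.14-fold, limma adjusted p = 1.91e-10) and -3.20 in WT (9.19-fold, limma adjusted p = 5.11e-12).

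Between the genotypes Itpr3 was higher in KO cells. At 0, 3, 8 and 16 h the differences were 0.11, 0.24, 0.59 and 0.69, with no overlap of KO and WT arrays at 8 and 16 h, though none of the 4 passed alone (limma adjusted p = 0.127 at 16 h). Averaged over the times it was 0.41 (1.33-fold, SE 0.09, limma adjusted p = 0.0277). This call depended on the fit: it ended with arrays scaled to their medians (limma adjusted p = 0.0799), with the random block (limma adjusted p = 0.2), without the male-type arrays (0.39, limma adjusted p = 0.127) and without any 1 of 8 single arrays, while the difference itself stayed between 0.37 and 0.46 when single arrays were left out. The 8 are KO replicate 1 at 0 and 3 h, KO replicate 2 at 3, 8 and 16 h, WT replicate 1 at 3 h, WT replicate 2 at 16 h and WT replicate 3 at 0 h. Means over the 4 times were at least 9.56 for each KO replicate number and at most 9.47 for each WT number. With these means compared 3 against 3 the difference of 0.41 did not pass (limma adjusted p = 0.805). Itpr3 has 1 probe set.

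Itpr2, another IP3 receptor, fell in both genotypes. KO levels were 9.77, 9.68 and 9.32 at 0 h, 7.92, 8.11 and 7.52 at 3 h, 8.57, 8.15 and 7.84 at 8 h, and 7.71, 7.74 and 7.45 at 16 h. WT levels were 9.23, 9.71 and 9.41 at 0 h, 8.14, 7.93 and 8.08 at 3 h, 8.68, 8.44 and 8.19 at 8 h, and 7.70, 8.40 and 7.96 at 16 h. All stimulated arrays lay below the 0 h arrays of their genotype. The change at 16 h was -1.95 in KO (limma adjusted p = 1.63e-07) and -1.43 in WT (limma adjusted p = 1.08e-05). The difference between these 2 changes, -0.53, did not pass (SE 0.31, limma adjusted p = 1). Each of the 6 Itpr2 probe sets had negative changes at all 3 times in both genotypes, with correlations to the brightest from 0.45 to 0.90. Averaged over the times KO minus WT was -0.17 (limma adjusted p = 0.718).

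The pumps moved apart from each other. Atp2b1, which expels calcium across the plasma membrane, peaked at 3 h. KO levels were 11.45, 11.35 and 10.73 at 0 h, 12.23, 12.03 and 11.37 at 3 h, 11.30, 11.28 and 10.85 at 8 h, and 11.05, 10.81 and 10.41 at 16 h. WT levels were 11.08, 11.21 and 10.91 at 0 h, 11.96, 12.34 and 11.58 at 3 h, 11.12, 11.39 and 10.54 at 8 h, and 10.53, 10.61 and 10.34 at 16 h. The rise at 3 h was 0.70 in KO, where 3 h overlapped 0 h (limma adjusted p = 0.0234), and 0.89 in WT, where it did not (limma adjusted p = 0.00452). At 8 h the changes were -0.04 and -0.05, and at 16 h -0.42 in KO and -0.57 in WT, none past the threshold. The KO call at 3 h ended with quantile normalization (0.64, limma adjusted p = 0.0503) and without KO replicate 1 at 3 h (0.52), replicate 2 at 3 h (0.62) or replicate 3 at 0 h (0.48). The WT change at 16 h passed without KO replicate 3 at 0 or 3 h or WT replicate 3 at 8 h (-0.57 each, limma adjusted p = 0.0489, 0.0433 and 0.0467). Without replicate number 3 of both genotypes the 16 h change passed in WT (-0.58, limma adjusted p = 0.00549) and KO (-0.47, limma adjusted p = 0.0232). All 3 Atp2b1 probe sets had positive changes at 3 h and negative ones at 16 h in both genotypes. At 16 h both dimmer ones passed in WT (-0.53 and -0.68, limma over all probe sets, adjusted p = 0.00582 and 0.0285), and the dimmest of them in KO (-0.80, limma adjusted p = 0.0116).

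Atp2a3, the store-refilling pump of blood cells, was lower at 8 and 16 h. KO levels were 11.55, 10.69 and 11.61 at 0 h, 10.82, 10.54 and 10.96 at 3 h, 10.12, 10.32 and 10.50 at 8 h, and 10.68, 10.37 and 10.58 at 16 h. WT levels were 10.99, 10.85 and 11.54 at 0 h, 10.43, 10.71 and 10.78 at 3 h, 9.76, 9.41 and 10.15 at 8 h, and 9.97, 10.02 and 10.17 at 16 h. The 8 h and 16 h arrays lay below the 0 h arrays of their genotype. The change at 8 h was -0.97 in KO (limma adjusted p = 0.00104) and -1.35 in WT (limma adjusted p = 2.18e-05), and at 16 h -0.74 and -1.07, both past the threshold. The KO call at 16 h ended without KO replicate 1 at 0 h (-0.60, limma adjusted p = 0.0576) or KO replicate 3 at 0 h (-0.58, limma adjusted p = 0.0635). That call also ended without replicate number 3 of both genotypes (-0.59, limma adjusted p = 0.0623). At 3 h the change was -0.51 in KO and -0.49 in WT, not past the threshold. It passed in both without KO replicate 2 at 0 h (-0.80 and -0.49). In WT it passed without WT replicate 2 at 0 h (-0.62) and in KO with quantile normalization (-0.56). KO levels exceeded WT levels without overlap at 16 h (difference 0.49, limma adjusted p = 0.625), and the averaged difference of 0.33 did not pass (limma adjusted p = 0.183), but passed without KO replicate 2 at 0 h (0.40, limma adjusted p = 0.031). A second Atp2a3 probe set correlated at 0.92 with the first. Its changes at 8 h, -0.94 in KO and -1.22 in WT, both passed the threshold over all probe sets. At 16 h it passed in WT (-1.29, limma adjusted p = 0.00173) but not in KO (-0.61, limma adjusted p = 0.148). Its KO levels at 16 h, 8.24 to 8.62, overlapped those at 0 h, 8.27 to 9.62.

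Kcnn4, a potassium channel opened by intracellular calcium, had its lowest mean at 8 h and its highest at 16 h in both genotypes. KO levels were 8.37, 8.68 and 8.01 at 0 h, 8.74, 8.44 and 7.59 at 3 h, 7.85, 6.95 and 7.28 at 8 h, and 8.62, 8.79 and 9.18 at 16 h. WT levels were 8.13, 8.38 and 8.03 at 0 h, 8.24, 8.79 and 7.60 at 3 h, 8.10, 7.95 and 7.19 at 8 h, and 8.79, 9.61 and 9.72 at 16 h. At 3 h replicate 3 was the lowest array in both genotypes, and the 16 h arrays overlapped the 0 h arrays in KO but not in WT. The 16 h change passed in WT (1.20, SE 0.34, limma adjusted p = 0.00573) and was 0.51 in KO (limma adjusted p = 0.268). The 8 h change passed in KO (-0.99, SE 0.34, limma adjusted p = 0.0259) and was -0.43 in WT (limma adjusted p = 0.379). That KO call ended with median scaling (-0.95, limma adjusted p = 0.0736) and without the 2 arrays of highest filter level (-0.79, limma adjusted p = 0.132). It also ended without KO replicate 1 or 2 at 0 h (-0.98 and -0.83) or KO replicate 2 or 3 at 8 h (-0.79 and -0.95). The genotypes were not shown to differ in either change, since the differences between them, -0.69 at 16 h and -0.56 at 8 h (SE 0.48 each), did not pass (limma adjusted p = 1 and 0.999). A second Kcnn4 probe set, which correlated at 0.82 with the first, changed by 0.98 in WT at 16 h (limma over all probe sets, adjusted p = 0.0659). Its KO change at 8 h was -0.50 and did not pass either (limma over all probe sets, adjusted p = 0.434).

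Kcnq5 encodes a voltage-gated potassium channel of the M-current family, known mainly from neurons and muscle. KO levels were 7.12, 6.32 and 8.66 at 0 h, 8.32, 7.50 and 9.93 at 3 h, 6.38, 3.00 and 8.68 at 8 h, and 6.69, 5.59 and 7.60 at 16 h. WT levels were 10.54, 11.55 and 8.80 at 0 h, 11.51, 12.76 and 9.92 at 3 h, 10.40, 11.74 and 8.78 at 8 h, and 10.06, 10.86 and 8.56 at 16 h. KO replicates 1 and 2 were far below WT replicates 1 and 2 at every time, while KO replicate 3 stood next to WT replicate 3, so that the genotypes touched at 3 h (9.93 against 9.92) and were apart at the other times.

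Averaged over the 4 times the Kcnq5 difference was -3.31, and -2.97 with the 2 KO arrays under the filter level (replicate 2 at 8 and 16 h) raised to it. Within replicate number 1 it was -3.50, within number 2 it was -6.13 and within number 3 it was -0.30. The number 3 differences were -0.15, 0.02, -0.09 and -0.96 at 0, 3, 8 and 16 h. Without number 3 of both genotypes the averaged value was -4.81, and without the male-type arrays, which are WT replicate 2 and the brightest in Kcnq5, it was -2.67. The labels give no reason why replicate 3 stands apart, and its cause was not tested.

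The levels of the 6 sets of arrays that share a genotype and number ranged over many log2 units, yet their changes at 3 h were alike. The 3 h change was 1.21, 1.18 and 1.28 in KO numbers 1 to 3 and 0.97, 1.21 and 1.11 in WT numbers 1 to 3. All 6 were positive. In the fit over groups the 3 h change was 1.22 in KO (SE 1.08, limma adjusted p = 0.426) and 1.10 in WT (SE 1.08, limma adjusted p = 0.479), since that SE contains the spread between the numbers. At 8 h the set changes were -0.73, -3.32 (its 8 h array being under the filter level) and 0.03 in KO and -0.14, 0.19 and -0.03 in WT.

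The averaged differences of the other 2 Kcnq5 probe sets were smaller in size and did not pass the test. The second, whose mean over all arrays was 8.67 beside 8.80 for the first, had 7.92, 8.42 and 8.23 in KO against 8.28, 8.60 and 8.64 in WT at 0 h, and 9.05, 8.78 and 8.68 in KO against 9.04, 9.02 and 8.70 in WT at 16 h. The genotypes overlapped at both times. Its averaged difference was -0.05 (limma over all probe sets, adjusted p = 0.964), its correlation with the first was -0.26, and its changes in WT were -0.70 at 3 h, 1.03 at 8 h and 0.41 at 16 h. The third was above the filter level on 16 of 24 arrays, averaged -0.66 between the genotypes (limma over all probe sets, adjusted p = 0.526) and correlated at -0.07 with the first. Which transcripts the 3 probe sets detect is not given here, so the Kcnq5 values hold for the brightest probe set alone.

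**Figure D3:**
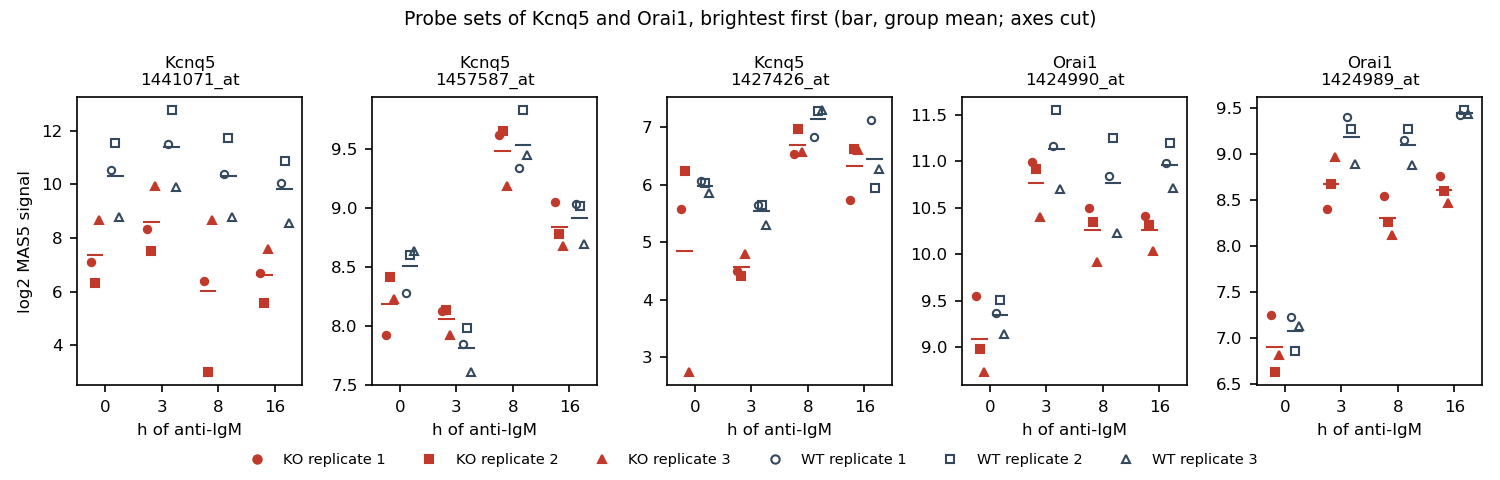
Log2 signal (vertical axes, which do not start at 0) of the 3 Kcnq5 and 2 Orai1 probe sets on every array by hours of anti-IgM, KO filled and WT open, with bars at group means. The first Kcnq5 panel separates the genotypes by -3.31 on average and the second by -0.05, while both Orai1 panels rise after 0 h with KO means below WT means.

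Of the 8 genes other than Kcnq5, which was listed for its genotype difference and is left out of these counts, 1 passed in the averaged comparison of KO with WT cells (Itpr3, higher), where 1.21% of all genes passed. At 0, 3, 8 and 16 h 0 of 8 passed in limma, where 0.0349%, 0.0559%, 0.0978% and 0.615% of all genes did. At an unadjusted p under 0.05 it was 0, 0, 2 and 3 of the 8, where 3.49%, 3.71%, 5.43% and 7.08% of all genes were under it. The arrays of the genotypes did not overlap in 0 of the 8 at 0 and 3 h, in 1 at 8 h (Itpr3) and in 3 at 16 h (Orai1, Itpr3, Atp2a3), where 7.81%, 7.91%, 9.49% and 10.2% of all genes did not overlap. The median difference of the 8 genes in the averaged comparison was 0.02, as over all genes (0.02). Stim1 (0.16), Stim2 (-0.06), Itpr2 (-0.17), Atp2b1 (0.10) and Kcnn4 (-0.17) had averaged differences with 95% intervals that included 0. In the joint test of whether the stimulation changes differed between the genotypes (limma's moderated F-test), 0 of 9 passed and 0.014% of all genes did, with the smallest unadjusted p at 0.122 for Itpr3. Taken time by time, 0 of 9 changes differed at 3, 8 or 16 h, where 0%, 0% and 0.021% of all genes did, and at an unadjusted p under 0.05 it was 0, 0 and 1 (Itpr3), where 2.3%, 3.11% and 4.36% of all genes were under it.

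**Figure D4:**
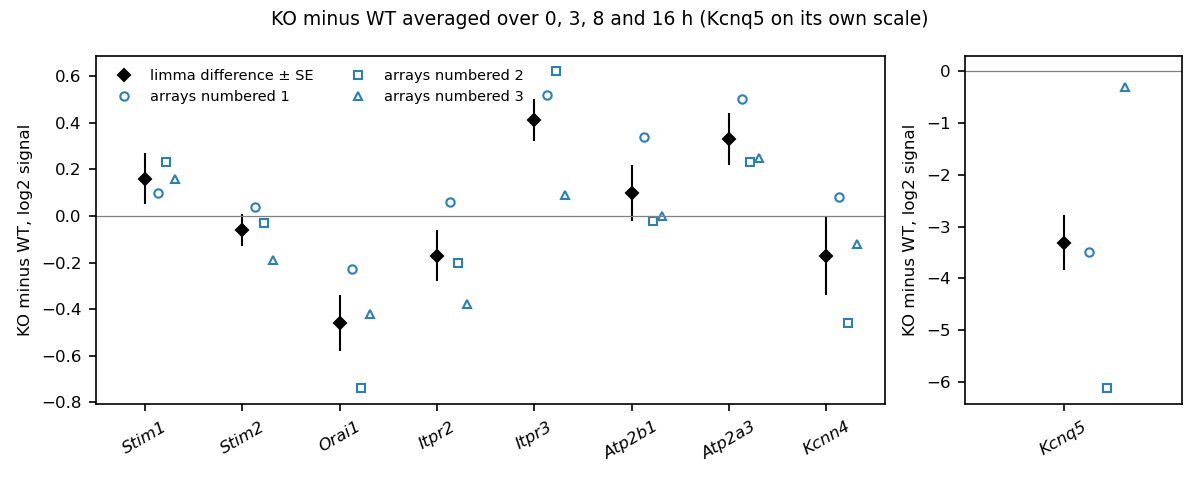
KO minus WT in log2 signal averaged over 0, 3, 8 and 16 h for each gene: the black diamond with bars is limma's value and SE, and the blue circle, square and triangle are the differences within replicate numbers 1, 2 and 3. The numbers name samples, and the labels do not pair them. Stim1 (0.10, 0.23, 0.16), Orai1 (-0.23, -0.74, -0.42), Itpr3 (0.52, 0.62, 0.09) and Atp2a3 (0.50, 0.23, 0.25) had 1 sign in all 3 numbers, and Kcnq5, on its own scale, spread from -6.13 to -0.30.

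Other genes of the pathway were taken from 8 lists holding 127 genes, of which 91 were tested. The counts stand beside 21.7% (KO) and 21.3% (WT) of all genes lower and 16.6% and 17% higher at 3 h, and beside 16.4% (KO) and 18.5% (WT) lower and 19.4% and 20.9% higher at 16 h, and nothing particular to a list is read from them. Among 7 other genes of store-operated entry and its contact sites, 5 fell and 0 rose at 3 h in KO and 5 fell and 0 rose in WT. Orai2, a second Orai channel, changed by -1.34 in KO and -1.14 in WT at 3 h (limma adjusted p = 0.00112 and 0.00465) and by -1.44 and -1.34 at 16 h, while Orai1 rose. Esyt1, which tethers the endoplasmic reticulum to the plasma membrane, changed by -1.51 in both at 3 h (limma adjusted p = 1.12e-07 and 1.13e-07).

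Of 14 genes of IP3 metabolism and other release channels, 4 fell and 2 rose in KO and 8 fell and 2 rose in WT at 16 h. Of these 8, 2 (Itpka and Ryr2) had a mean under the filter level in at least 1 of the 2 groups, and with dim signals raised to that level the change of Ryr2 was -0.32. Itprip, whose product interacts with IP3 receptors, changed by -2.87 in KO and -3.24 in WT at 16 h (limma adjusted p = 6.36e-10 and 4.89e-11). Itpkb, which phosphorylates IP3, changed by -0.99 and -1.41. Ahcyl1, whose product IRBIT binds IP3 receptors, rose by 0.88 and 1.23, and Lrmp, also called Jaw1, an IP3 receptor partner in lymphoid cells, by 1.18 and 1.43. Plcg2, the phospholipase that makes IP3 below the B cell receptor, changed by -1.02 in KO and -1.14 in WT at 3 h.

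Of 9 other pumps and exchangers, 1 rose and 2 passed as lower at 3 h in each genotype. The lower ones were Atp2c1, a calcium pump of the Golgi (-1.07 in KO, -0.86 in WT), with Slc8a1 in KO, where it was under the filter level in both groups, and Slc8b1, the mitochondrial sodium-calcium exchanger, in WT (-0.94). Atp2a2, the widely expressed SERCA pump, rose by 1.24 in KO and 1.21 in WT at 3 h and by 0.83 in KO and 1.06 in WT at 16 h, while Atp2a3 fell at 8 and 16 h. Among 9 calcium-binding proteins of the store, 5 rose and 1 fell in KO and 6 rose and 1 fell in WT at 16 h (1 of the 6, Rcn3, under the filter level at 0 h), with Rcn1, a reticulocalbin, at 0.68 and 1.12 and Nucb2, a nucleobindin, at -1.91 and -2.50. Of 8 calmodulin and calmodulin kinase genes 3 fell and 0 rose in both genotypes at 16 h, Camk1d most (-2.21 in KO, -2.47 in WT). Of 6 genes listed for mitochondrial calcium handling 2 rose in KO and 3 in WT at 16 h, among them Letm1 (0.50 and 0.56) and Smdt1 (0.50 and 0.46).

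Of 17 other potassium channel genes 2 fell and 0 rose in KO and 4 fell and 0 rose in WT at 16 h, 1 of the 4 being Kcnh2, which was under the filter level at 16 h and changed by -0.23 with dim signals raised to it. Kcna3, the voltage-gated lymphocyte channel Kv1.3, changed by -1.11 in KO (limma adjusted p = 0.00155) and by -1.0 in WT at 3 h. At 16 h it changed by -1.16 in WT and did not pass in KO. Kcnab2, which encodes a subunit of such channels, changed by -0.60 in KO and -0.72 in WT at 16 h. Of 21 other membrane channel genes 5 fell and 1 rose in KO and 6 fell and 1 rose in WT at 16 h. The 1 that rose in KO, Cacna1f, was under the filter level at 0 h, and 1 of the 6 in WT, Cacna1s, at 16 h. Cacna1e, the pore of an R-type voltage-gated calcium channel, changed by -2.62 in KO and -3.61 in WT at 16 h. Tpcn1, a channel of endosomes and lysosomes, changed by -1.65 in KO and -1.50 in WT at 3 h.

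Between the genotypes, 2 of the 91 pathway genes passed in the averaged comparison, where 1.21% of all genes did, and both were lower in KO cells. Mcoln2, a calcium-permeable channel of endosomes, had a mean of 9.74 in KO and 10.45 in WT cells (difference -0.71, SE 0.10, limma adjusted p = 0.000183). At 16 h its means were 9.58 and 10.97 (-1.39, limma adjusted p = 0.000573), and it was the 1 pathway gene past the threshold at that time. Micu3, a regulator of the mitochondrial calcium uniporter, had 7.16 in KO and 8.23 in WT cells (-1.07, SE 0.23, limma adjusted p = 0.0147). The Micu3 call ended with the random block (limma adjusted p = 0.0728), without the male-type arrays (-0.78, limma adjusted p = 0.191) and without the 2 arrays of highest filter level (-1.02, limma adjusted p = 0.0571). That of Mcoln2 held in these 3 fits (limma adjusted p = 0.00315, 0.00958 and 0.00132) and ended with set means compared 3 against 3 (-0.71, limma adjusted p = 0.186), as did that of Micu3 (limma adjusted p = 0.745).

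Micu3 was also the gene whose pattern was most like that of Kcnq5 over the 24 arrays (Pearson r = 0.803), and the only one at 0.8 or more. Its means over the 4 times were 6.77, 6.86 and 7.84 for KO numbers 1 to 3 and 7.83, 8.81 and 8.05 for WT. As in Kcnq5, number 3 had the smallest distance between the genotypes and WT number 2 the highest mean. By the same measure the nearest genes were Gpr18 (0.982) and Fkbp15 (0.976) for Itpr3, followed by Itprip (0.973), Tmem165 (0.956) for Orai1, Ly86 (0.941) for Itpr2, Ppm1a (0.941) for Atp2b1, Parp3 (0.929) for Stim1, Ptp4a2 (0.907) for Atp2a3, Acat1 (0.878) for Stim2 and Tusc3 (0.864) for Kcnn4. Arrays of one time share the stimulation, and 873 genes reached 0.8 with Itpr3 but 6 with Kcnn4.

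Among the 9 genes, 3 pairs had an r of at least 0.8 in size over the 24 arrays: Stim1 with Orai1 (-0.84), Itpr2 with Itpr3 (0.84) and Stim1 with Itpr3 (0.80). After each group's mean was taken off, the same pairs had -0.13, 0.25 and 0.10. The strongest relation after that step was Orai1 with Atp2b1, at 0.93, against 0.35 over the 24 arrays as they stand. In both genes number 3 had the lowest mean over the times in each genotype (Orai1 9.77 in KO and 10.20 in WT, Atp2b1 10.84 in both). In their second probe sets number 3 was not always lowest. Atp2b1 had 11.13, 10.73 and 11.00 there in KO at 0 h, and Orai1 8.40, 8.67 and 8.96 in KO at 3 h. The cause of this relation was not tested.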

How the data were processed

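RNA of 24 samples was hybridised to Affymetrix arrays, 1 per sample. The deposited values are log2 of MAS5 signals computed by the authors, per the submitters' processing notes, with no version given. They were used as deposited. No detection calls were used, so a signal under the 40th percentile of its own array was taken as dim. A probe set was kept when above that level on at least 3 arrays (33486 of 45101, 64 controls left out). Gene names came from the platform annotation, updated by Entrez identifier (34754 of 34958 probe sets with 1 symbol matched). The brightest kept probe set stood for each of 14318 genes.

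A linear model with a mean for each of the 8 groups was fitted to all genes (limma 3.58.1, R 4.3.3, trended eBayes, 16 residual degrees of freedom), with Benjamini-Hochberg adjustment over all genes and calls under 0.05. Precision is limited by the number of arrays. The model was also run on simulated data with 200 changed genes, and the outcome is not given here. Where a group mean lay under the filter level, signals under it were raised to it to give a bound.

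The genes, pathway lists, tests and alternatives were chosen with earlier results of these data known. All 9 measured genes are named, with at most the 3 highest and 3 lowest called genes per pathway list. These come from the genotype comparisons and the WT changes at 3 and 16 h. KO values stand beside the WT changes where they passed. The nearest genes with r of at least 0.8 are named too. The alternatives for the second Orai1 probe set were chosen after its values were seen. Alternatives were quantile and median scaling, other filters, every probe set on its own, blocks, eBayes without trend and arrays left out. Those leaving out replicate number 3 of both genotypes or using genotype and number as a fixed block were chosen after seeing the data. Promoter windows and coordinates are RefSeq on GRCm38.p6.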

Additional observations from a re-analysis of the deposited data

How the results depend on the processing

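The counts of genes changed by stimulation stayed within 1.5 times the reported ones under every alternative run, with 4 to 8 of 9 called in KO and 5 to 8 in WT cells. Leaving out each array in turn gave 5 to 7 (3 h), 6 to 7 (8 h) and 4 to 5 (16 h) in KO and 5 to 7, 6 and 6 to 7 in WT. The averaged genotype count of 2 includes Kcnq5, which was listed for that difference, so its calls support nothing. The count was 1, Itpr3 having lost its call, with median scaling, the random block of genotype and number, eBayes without trend, without the male-type arrays or without the 2 arrays of highest filter level, and 0 with set means compared 3 against 3. Leaving out each array gave 1 to 3, at 8 h 0 to 1, with Kcnq5 counted. At 8 h no gene besides Kcnq5 was called with the random block or without replicate number 3 of both genotypes. Without number 3, Kcnq5 left aside, Orai1 and Itpr3 were called in the averaged comparison and Itpr3 at 16 h. Stim2's averaged difference was 0.01 without number 3, and Stim1's at 16 h was -0.0007 without WT replicate 1 at 16 h (range -0.0007 to 0.44 over arrays left out). The cause was not tested.

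With replicate number as a replicate block, Orai1, Itpr3 and Atp2a3 were called in the averaged comparison, with 2.97% of all genes. Kcnq5, which was listed for that difference, is left out here. At 16 h 2 genes (Orai1, Itpr3) were called, with 1.45% of all genes. The random block called 0.321% of all genes in the averaged comparison. The labels do not pair the samples by number. Deviations from group means correlated at 0.02 to 0.22 between KO and WT arrays of the same time and number. The value was over 0.1 in 3 of 12 pairs. Between KO and WT arrays of the same time and different numbers it lay between -0.18 and 0.12. Within a genotype, arrays of the same number at different times correlated at 0.02 to 0.37, over 0.1 in 15 of 36 pairs. The 4 male-type arrays were those of WT number 2 at the 4 times. Whether equal numbers share a source was not tested. All 3 block fits called Atp2a3 at 3 h in KO (limma adjusted p = 0.0102 to 0.0245) and in WT (limma adjusted p = 0.0136 to 0.0312). They also called Atp2b1 at 16 h in WT (limma adjusted p = 9.03e-05 to 0.0106), and both fixed blocks called Atp2b1 at 16 h in KO. The Kcnq5 change at 3 h was called with genotype and number as a fixed block (KO 1.22, limma adjusted p = 0.0213, WT 1.10, limma adjusted p = 0.0382, with 43.8% and 44.2% of all genes) but not as a random block (limma adjusted p = 0.236 and 0.291). Signals near the filter level limit the 2 dim Kcnq5 arrays.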
